A study of Mus musculus with 4 samples.

Results

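The mitochondrial respiratory chain was examined through the genes of its subunits, in the mouse autopod, the end of the limb bud from which hand and foot form. Members were the genes whose symbol in the platform annotation begins like that of a nuclear-encoded subunit of complexes I to V (the Ndufa, Ndufb, Ndufc, Ndufs and Ndufv series, Sdha to Sdhd, the Uqcr genes, the Cox4 to Cox8 genes and the Atp5 genes) and that had a probe set assigned to that gene alone. Of 18193 genes on the array with such a probe set, 81 were members: 33 of complex I, 4 of complex II, 8 of complex III, 19 of complex IV and 17 of complex V. Each gene is described by its brightest probe set, and 79 of the 81 were bright enough on average to be tested. The 2 that were not are Ndufb4, a complex I subunit, with 26.6 and 61.0 signal units in Hox13dKO against 11.8 and 42.7 in wild type, and Cox7b2, a form of complex IV subunit 7B, with 2.93 and 28.8 in Hox13dKO against 8.55 and 1.56 in wild type.

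The samples were 2 Hox13dKO autopods, from C57BL/6 embryos at E11.25 (the age in embryonic days) that are homozygous both for Hoxa13 loss and for a deletion of Hoxd11, Hoxd12 and Hoxd13, and they were set against 2 autopods of wild-type C57BL/6 embryos of the same stage. Fore- and hindlimb pieces that match the Hoxd13 domain both entered each sample, and the genes are lost throughout the embryo, not in the limb alone. Each sample was hybridised to 1 Affymetrix array, and the labels speak of biological replicates. They do not state the number of embryos in a sample, so p-values measure the spread between these samples alone. The targeted gene Hoxd13 read 5.79 and 9.58 units in Hox13dKO against 14540 and 16116 in wild type. The 8 limb mesenchyme markers had summed signals of 33885 and 31199 in Hox13dKO against 34067 and 33345 in wild type, and 8 of 8 were bright enough to test. Of the 8, 7 had lower values in Hox13dKO (54.2% of all genes did), with a median log2 difference of -0.16, and Prrx1 was higher, at 11938 and 9125 units in Hox13dKO against 7952 and 7008 in wild type. The ratio of 5' to 3' actin signal, a sign of RNA integrity, was 0.728 and 0.771 in Hox13dKO against 0.473 and 0.764 in wild type. The same ratio for Gapdh was 1.17 and 1.16 in Hox13dKO against 1.23 and 1.25 in wild type.

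The respiratory chain sits in the inner mitochondrial membrane. Complexes I and II take electrons from NADH and succinate, complex III passes them to cytochrome c, complex IV hands them to oxygen, and complex V, the ATP synthase, uses the proton gradient that complexes I, III and IV build to make ATP. Most subunits are encoded in the nucleus by genes that are active in every cell, while a few complex IV subunits exist in forms kept to heart and muscle, testis or lung. Glycolysis, in the cytosol, makes ATP without the chain.

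Transcripts of the respiratory chain in Hox13dKO lay close to their wild-type levels in all 5 complexes. By limma, 0 of the 79 members tested were past an adjusted p of 0.05, where 0.306% of all 13072 genes tested were. At an unadjusted p under 0.05 there were 3 members higher in Hox13dKO and 0 lower, against 4.26% and 2.99% of all genes. The 3 were Ndufv3 of complex I and Cox6b2 and Cox7a2l of complex IV. The median log2 difference, Hox13dKO minus wild type, was -0.0062 over the members and -0.03 over all genes. The interquartile range of the members was -0.06 to 0.07, and that of all genes -0.20 to 0.16. Differences were below 0 in 43 of the 79 members, close to the 54.2% of all genes. The members' standard errors were smaller than those of all genes, with a median of 0.14 against 0.22. Members were also brighter, with a median mean signal of 6888 units against 550 over all genes. The part of brightness in these narrower spreads was not tested.

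Intervals were narrow for bright members and wide for dim ones. Over the 70 members with a mean signal above 1000 units, a limit chosen after their values were seen, log2 differences ran from -0.29 to 0.42, and 65 of the 70 lay within 0.15 of 0. For all 70 the 95% interval of the single gene stayed within 2-fold either way, with -0.61 as the lowest bound and 0.75 as the highest. Of the 79 members 71 had such an interval, where 65.7% of all genes did. The 9 dimmer members were far less certain, with intervals from -2.21 to 4.21 and 1 of 9 within 2-fold.

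**Figure D1:**
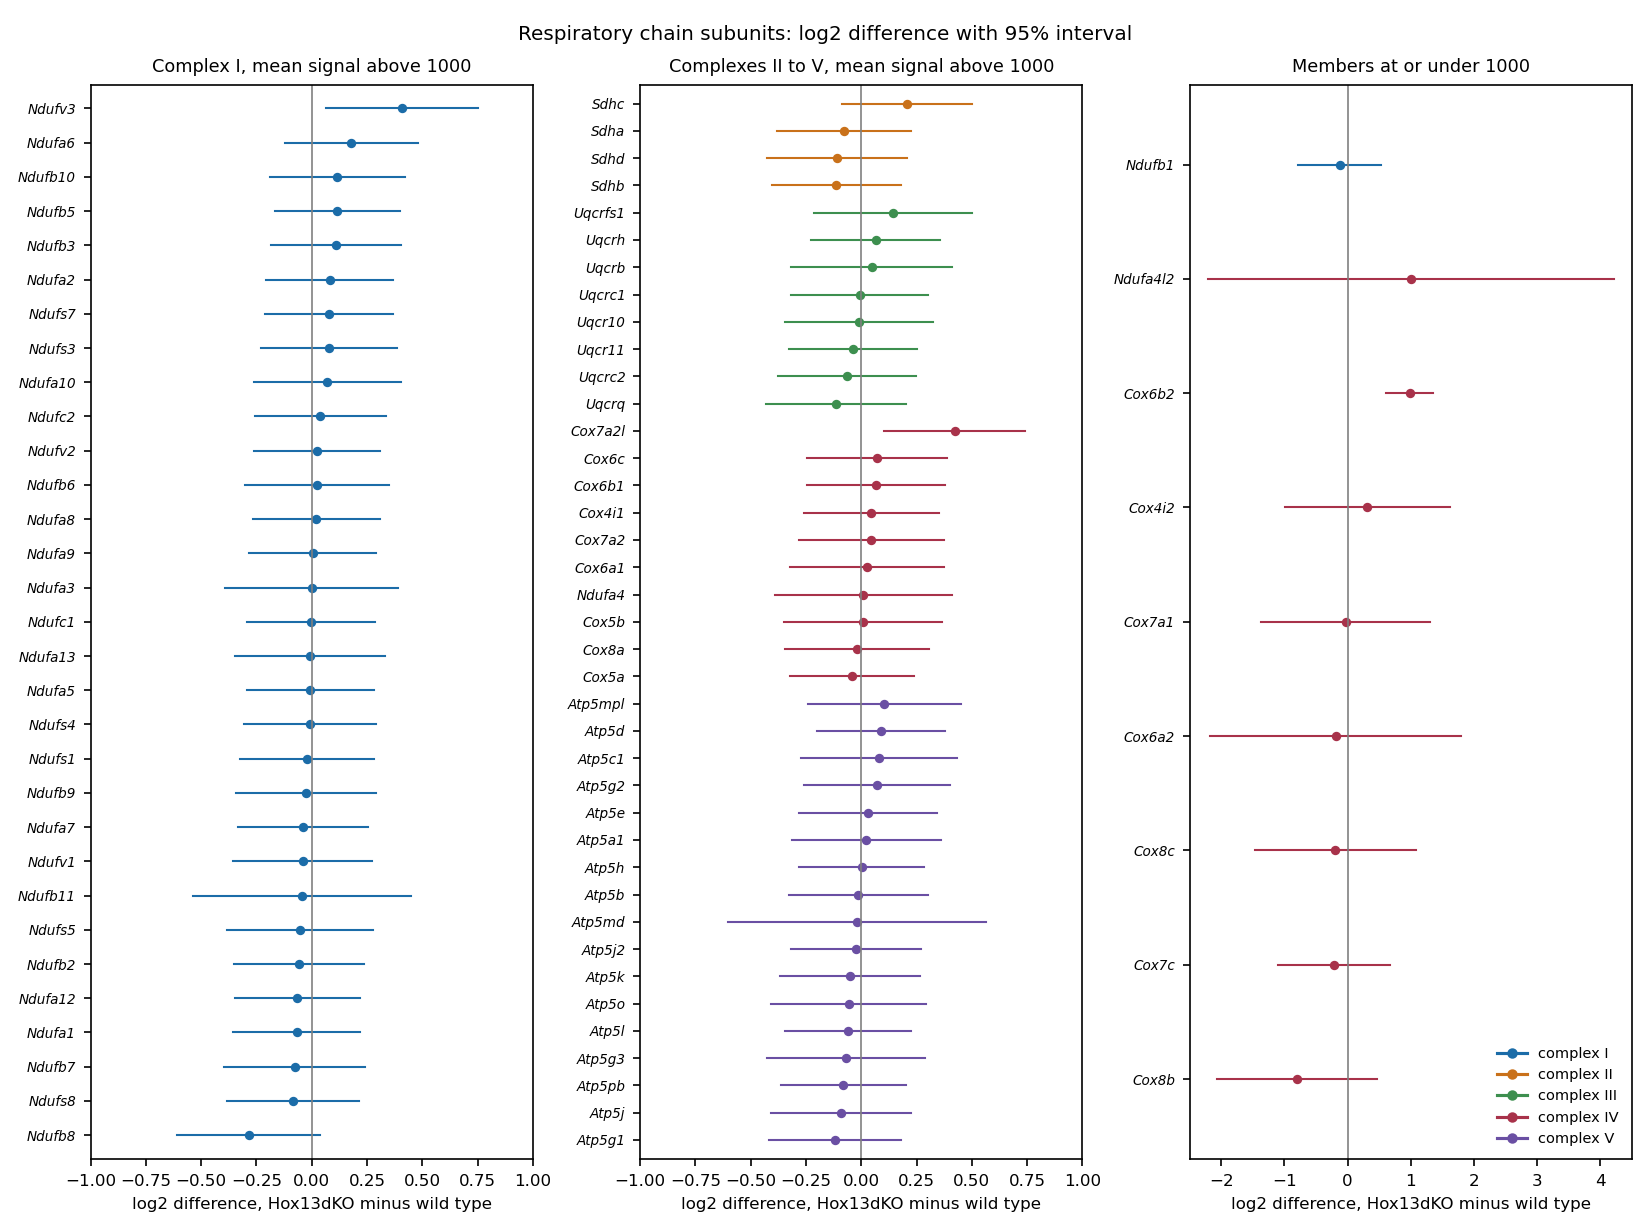
Log2 difference, Hox13dKO minus wild type, of the 79 members tested, 1 row per gene; points are limma estimates from 2 arrays a group, lines 95% intervals and colours complexes. The 70 members above 1000 units (left and middle) have estimates from -0.29 to 0.42, and the 9 dimmer ones (right, on a wider axis) have intervals from -2.21 to 4.21.

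For most members, as for most of all genes, the larger gap between replicates exceeded the difference between groups. The median size of the group difference was 0.06 on the log2 scale over the members, while the median gap between replicates was 0.15 in Hox13dKO and 0.14 in wild type. In 66 of the 79 members (83.5%) the group difference was smaller than the larger of these gaps, against 75.2% of all genes. Both Hox13dKO arrays lay above both wild-type arrays in 9 members (11.4%, against 17.1% of all genes) and below both in 8 (10.1%, against 20.1% of all genes). Thus 17 of 79 had groups that did not overlap (37.2% of all genes), and 62 had overlapping ones. The 9 above were Ndufv3, Ndufa6, Ndufb5, Ndufb3, Ndufa2, Ndufs7, Sdhc, Cox6b2 and Cox7a2l, and the 8 below were Ndufb8, Ndufa12, Sdhb, Cox5a, Cox8b, Atp5g1, Atp5pb and Atp5l.

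What the members of different complexes shared was a difference between arrays within each group. In Hox13dKO, 72 of 79 members read higher on the array of replicate 2 than on that of replicate 1, and in wild type 57 of 79 did. Of all 13072 genes, 6663 did so in Hox13dKO and 6835 in wild type. Measured as the median deviation of each array from the gene's own mean, the members stood at -0.08 and 0.09 in Hox13dKO against -0.05 and 0.05 in wild type. Over all genes these medians were -0.0064 and 0.0024 in Hox13dKO against 0.0079 and 0.02 in wild type. The widest spread was that of complex IV, at -0.11 and 0.16 in Hox13dKO against -0.10 and 0.07 in wild type. In each of the 5 complexes the Hox13dKO pair straddled 0, as did the wild-type pair. The source of this shift between arrays was not tested, nor was whether other bright genes share it.

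**Figure D2:**
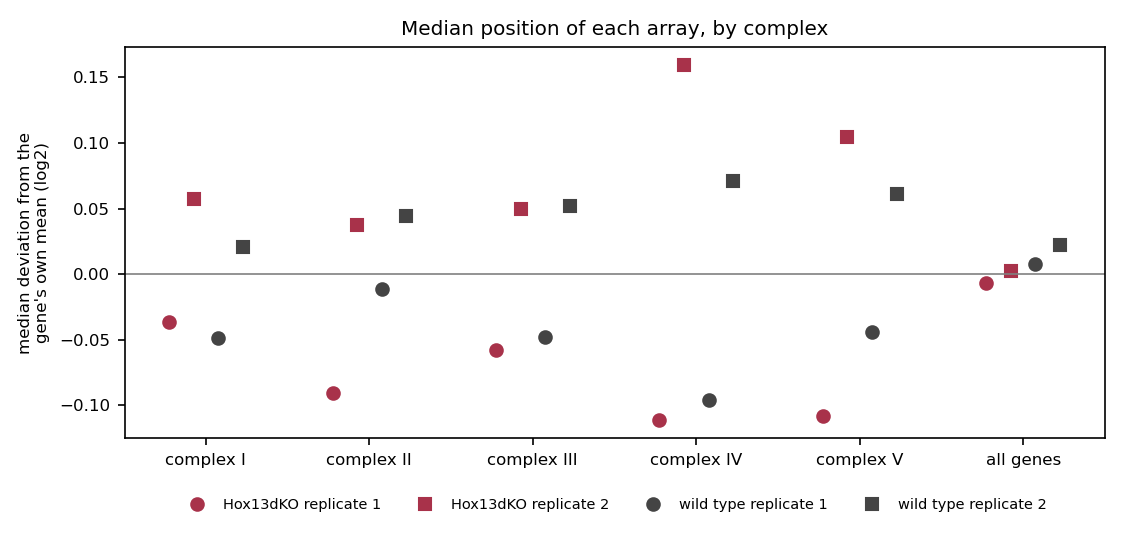
Median deviation of each array from each gene's own 4-array mean (log2), for complexes I to V and for all genes; circles are replicate 1, squares replicate 2, red Hox13dKO and grey wild type. In all 5 complexes both squares lie above 0 and both circles below it, while for all genes the 4 arrays lie between -0.0064 and 0.02.

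Complex I, the NADH dehydrogenase and the largest entry complex, had 0 of 32 tested members past the threshold (0.306% of all genes were). Its median was -0.0051, with 14 positive and 18 negative differences. Its core subunits, which carry the flavin and iron-sulfur centres and the quinone site, lay close to 0. Of the 6 measured, Ndufv1, which binds the flavin and takes electrons from NADH, read 3844 and 4334 units in Hox13dKO against 4423 and 3987 in wild type. Ndufs1, its iron-sulfur partner in the same arm, read 3283 and 3609 in Hox13dKO against 3574 and 3415 in wild type. Ndufs7, next to the quinone site, read 3899 and 4073 in Hox13dKO against 3743 and 3801 in wild type. It was the 1 core gene of the 6 whose groups did not overlap, where 37.2% of all genes had such groups. Log2 differences were -0.04 for Ndufv1, 0.03 for Ndufv2, -0.02 for Ndufs1, 0.08 for Ndufs3, 0.08 for Ndufs7 and -0.08 for Ndufs8, with standard errors of 0.12 to 0.14 and adjusted p from 0.970 to 0.989.

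Among the 26 supernumerary subunits of complex I tested, which surround the core and help it assemble, the outermost values were those of Ndufv3 and Ndufb8. Ndufv3, a small subunit beside the flavin arm, read 4154 and 4929 units in Hox13dKO against 3164 and 3677 in wild type. Both Hox13dKO arrays were above both wild-type arrays, by 0.41 ± 0.15 (log2 difference ± SE, 1.33-fold; 95% interval 0.07 to 0.75), and the adjusted p was 0.663. Ndufb8, a membrane-arm subunit, read 5646 and 5988 in Hox13dKO against 6454 and 7784 in wild type. Its groups were separate too, with a log2 difference of -0.29 ± 0.14 (adjusted p = 0.861). Its other probe set, far dimmer at 81.5 and 101 in Hox13dKO against 111 and 105 in wild type, gave -0.25 ± 0.42. Ndufa6 (0.18 ± 0.13, adjusted p = 0.922) was next among the high values and Ndufb1, at 226 and 326 units in Hox13dKO against 331 and 266 in wild type (-0.13 ± 0.29, adjusted p = 0.979), next among the low ones.

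Complex II, succinate dehydrogenase, is both an enzyme of the citric acid cycle and an entry point of the chain, and the only complex whose genes are all nuclear. Its median was -0.09, from 3 negative differences and 1 positive one at the brightest probe sets. It ran from -0.14 to -0.0086 with an array left out, the upper end without Hox13dKO replicate 1. Under the other settings tried it ran from -0.11 to -0.03. Sdha, the flavoprotein that oxidises succinate, read 4637 and 5131 units in Hox13dKO against 5372 and 4929 in wild type, with overlapping groups (-0.08 ± 0.13). Its other tested probe set, dimmer, gave the opposite sign (0.13 ± 0.15). Sdhb, the iron-sulfur subunit, read 7072 and 7210 in Hox13dKO, below 7325 and 8131 in wild type (-0.11 ± 0.13, adjusted p = 0.960). Of the membrane anchors, Sdhd read 2876 and 3284 in Hox13dKO against 3184 and 3449 in wild type (-0.11 ± 0.14), with -0.14 at its other probe set, dimmer. Sdhc read 3621 and 3606 in Hox13dKO, above 3038 and 3225 in wild type, by 0.21 ± 0.13 (adjusted p = 0.900), while its other probe set, dimmer, gave -0.10. The 95% intervals of all 4 genes covered 0.

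Complex III, the cytochrome bc1 complex, had 0 of 8 members past the threshold (0.306% of all genes were) and a median of -0.0091. At the brightest probe sets the groups overlapped in 8 of 8, where 37.2% of all genes had groups that did not. Uqcrfs1, the Rieske iron-sulfur protein, read 6109 and 6190 units in Hox13dKO against 6369 and 4878 in wild type (0.14 ± 0.15). Uqcrq, one of the small subunits, read 3030 and 3480 in Hox13dKO against 3654 and 3383 in wild type (-0.11 ± 0.14). These were its highest and lowest differences, followed by Uqcrh, the hinge protein (0.06 ± 0.13), and Uqcrc2, a core protein (-0.06 ± 0.14). Dimmer probe sets of Uqcrh (0.25 ± 0.13), Uqcrc2 (0.11 ± 0.13) and Uqcr10 (0.13 ± 0.15) had both Hox13dKO arrays above both wild-type arrays. The remaining tested probe sets, of Uqcrb, Uqcrq and Uqcr10, had overlapping groups. Cyc1, the cytochrome c1 of the complex, lies outside the symbol rule and differed by -0.11 ± 0.13 (adjusted p = 0.961).

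Complex V, the ATP synthase, had 0 of 17 members past the threshold (0.306% of all genes were). It had a median of -0.02 and the narrowest range, from -0.12 to 0.10. Atp5b, the catalytic beta subunit of the F1 head, read 14956 and 17540 units in Hox13dKO against 15781 and 16913 in wild type. The 5 F1 genes differed by 0.02 (Atp5a1), -0.01 (Atp5b), 0.08 (Atp5c1), 0.09 (Atp5d) and 0.03 (Atp5e). In 5 of 5 the groups overlapped, where 37.2% of all genes had groups that did not. Subunit c, whose ring turns in the membrane, is encoded by 3 genes that make the same mature protein. Atp5g1 read 3900 and 4331 in Hox13dKO, below 4387 and 4543 in wild type (-0.12 ± 0.13, adjusted p = 0.955). Atp5g2 (0.07 ± 0.14) and Atp5g3 (-0.07 ± 0.15) had overlapping groups. The other outer values were Atp5j, coupling factor 6 of the peripheral stalk (-0.09 ± 0.14), and Atp5mpl, a small proteolipid (0.10 ± 0.15). Atp5md showed the widest gap between replicates of this complex, at 5852 and 6947 in Hox13dKO against 8697 and 4803 in wild type.

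Complex IV, cytochrome c oxidase, joined common forms that lay near 0 with tissue forms that spread widely. Ndufa4 is placed here because it is a subunit of complex IV, although it was first named as one of complex I, and so is its relative Ndufa4l2. The 10 widely expressed subunits tested ran from -0.22 to 0.07 with a median of 0.02, and 0 passed (0.306% of all genes did). Cox4i1, the common subunit 4, read 15236 and 17185 units in Hox13dKO against 15139 and 16224 in wild type (0.05 ± 0.13). The other common forms of subunits with several forms differed by 0.03 (Cox6a1), 0.07 (Cox6b1), 0.05 (Cox7a2) and -0.02 (Cox8a), and Ndufa4 by 0.0094. The low end was Cox7c, which by the probe sets of the rule was dim, at 150 and 314 in Hox13dKO against 223 and 287 in wild type (-0.22 ± 0.38).

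Of all members the lowest p was that of Cox6b2, the form of subunit 6B known from testis. It read 1230 and 1241 units in Hox13dKO against 645 and 606 in wild type. The group means were 1236 ± 7.70 in Hox13dKO against 626 ± 27.1 in wild type (SD over 2 arrays, too few to fix a spread). As the gene was singled out by its low p, close replicates are part of that choice. The log2 difference was 0.98 ± 0.16, 1.98-fold, with a 95% interval of 0.61 to 1.35, and the adjusted p of 0.0823 did not pass the threshold over all probe sets, while it was 0.0314, past it, in a fit with 1 probe set per gene. Over all 16 alternatives the adjusted p ran from 0.00734 to 0.591, the upper end without the intensity trend. With an array left out the log2 difference of Cox6b2 lay between 0.94 and 1.03. The common form Cox6b1 read 16185 and 18938 in Hox13dKO against 16302 and 17158 in wild type, with overlapping groups (0.07 ± 0.14, 95% interval -0.25 to 0.38). Cox6b2 has 1 probe set under the rule, so no other probe set bears on it.

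**Figure D3:**
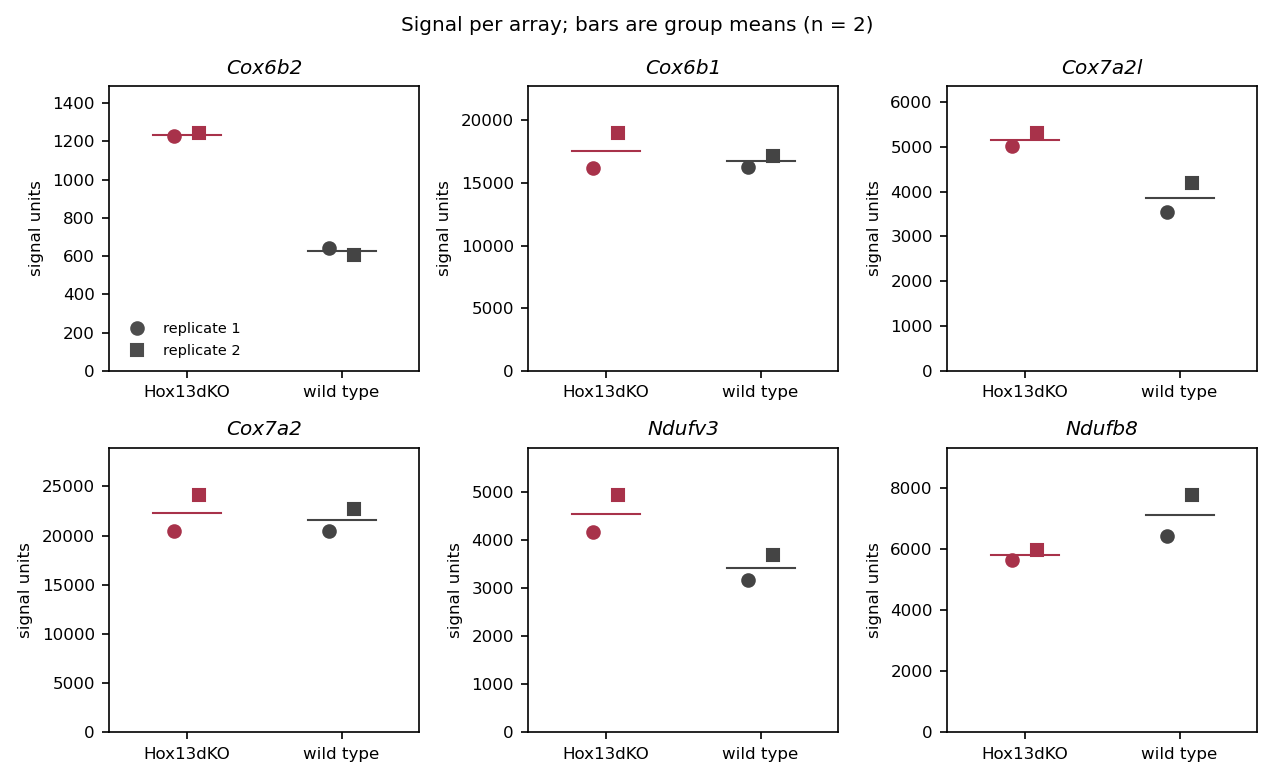
Signal units per array of Cox6b2, its common form Cox6b1, Cox7a2l, its relative Cox7a2, Ndufv3 and Ndufb8; circles are replicate 1, squares replicate 2, bars group means of 2 arrays, and each panel starts at 0. Cox6b2 stood at 1230 and 1241 in Hox13dKO against 645 and 606 in wild type, while the groups of Cox6b1 and Cox7a2 overlapped.

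The promoters of respiratory chain genes are known for motifs of NRF1, of ETS factors such as GABP and of YY1, and the sequences were read to see how far these genes share them. RefSeq windows of build GRCm38.p6, from 250 bases before to 50 after a gene's start, were at hand for 66 of the 81 members, in 71 windows. Both strands were searched for CGCATGCG (NRF1), CCGGAAG (ETS) and AAGATGGCG (YY1), and for the hypoxia-element cores ACGTG and GCGTG, which share the letters CGTG. The NRF1 letters were in 8 of the 71 windows of members and in 1.87% of all 32851 windows, the ETS letters in 17 (23.9%) against 8.86%, and the YY1 letters in 6 (8.45%) against 1.40%. ACGTG was in 26.8% of the members' windows and 19.6% of all, and GCGTG in 53.5% and 32.4%. The members' windows were also richer in G and C, with a median of 58.3% against 52.7%. A match is a description of these letters and not of binding.

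**Figure D4:**
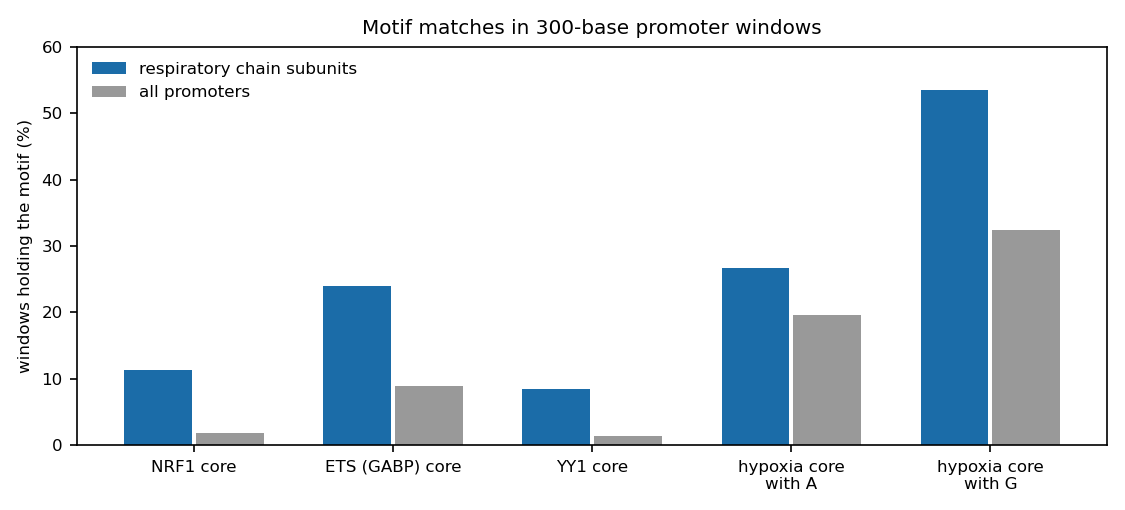
Percent of 300-base promoter windows that hold each motif on either strand, for 71 windows of 66 respiratory chain genes (blue) and all 32851 windows (grey). The NRF1, ETS and YY1 letters were in 8, 17 and 6 of the members' windows against 1.87%, 8.86% and 1.40% of all windows. The NRF1 letters had been shortened after counts of a longer form were seen.

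The windows of 4 members are printed 5′ to 3′ on the gene's strand: Cox6b2, with the lowest p of all members, its common form Cox6b1, Ndufv3 at the upper end of complex I, and Cox6a1, the member of complex IV that holds the NRF1 letters. Capitals mark matches to the motifs above. Cox6b2 (chr7:4753045-4753344, minus strand) held none of them. Cox6b1 (chr7:30626065-30626364, minus strand) held the ETS letters at -28 to -22 from its start and GCGTG on both strands further upstream. Ndufv3 (chr17:31519865-31520164, plus strand) held ACGTG once and GCGTG 3 times. Cox6a1 (chr5:115348909-115349208, minus strand) held the NRF1 letters at -161 to -154 and the ETS letters at -16 to -10, and its signal differed by 0.03 ± 0.15 between the groups.
Cox6b2: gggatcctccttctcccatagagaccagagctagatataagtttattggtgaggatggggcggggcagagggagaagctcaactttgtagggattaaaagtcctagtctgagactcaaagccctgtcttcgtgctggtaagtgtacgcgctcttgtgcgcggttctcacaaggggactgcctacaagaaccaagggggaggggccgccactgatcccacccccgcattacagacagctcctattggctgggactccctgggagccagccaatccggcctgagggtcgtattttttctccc
Cox6b1: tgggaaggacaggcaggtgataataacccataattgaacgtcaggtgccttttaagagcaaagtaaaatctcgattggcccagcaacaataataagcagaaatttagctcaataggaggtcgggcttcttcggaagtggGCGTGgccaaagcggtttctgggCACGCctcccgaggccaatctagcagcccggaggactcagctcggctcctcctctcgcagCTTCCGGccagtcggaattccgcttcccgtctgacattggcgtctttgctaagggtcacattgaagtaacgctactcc
Ndufv3: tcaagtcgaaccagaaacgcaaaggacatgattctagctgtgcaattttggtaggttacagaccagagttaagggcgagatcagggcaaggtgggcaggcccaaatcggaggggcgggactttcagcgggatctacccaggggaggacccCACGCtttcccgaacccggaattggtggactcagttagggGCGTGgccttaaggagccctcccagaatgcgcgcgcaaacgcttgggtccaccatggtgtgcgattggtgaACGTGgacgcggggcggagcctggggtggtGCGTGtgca
Cox6a1: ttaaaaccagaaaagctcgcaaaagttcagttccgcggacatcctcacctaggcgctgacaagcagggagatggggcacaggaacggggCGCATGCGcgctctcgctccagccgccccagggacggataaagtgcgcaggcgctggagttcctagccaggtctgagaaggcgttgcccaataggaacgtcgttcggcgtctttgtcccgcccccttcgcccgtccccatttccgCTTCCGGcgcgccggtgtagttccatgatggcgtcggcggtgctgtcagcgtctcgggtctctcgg

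The 7 other tissue forms and relatives of complex IV were mixed. Cox7a2l, a factor that joins complexes III and IV into supercomplexes, read 5023 and 5298 units in Hox13dKO against 3539 and 4182 in wild type, 1.34-fold (0.42 ± 0.14, 95% interval 0.10 to 0.74, adjusted p = 0.569). Its other probe sets gave 0.24 and 0.13. The heart and muscle forms were dim on every array. Cox6a2 read 19.8 and 83.2 in Hox13dKO against 62.9 and 33.9 in wild type, and Cox7a1 read 53.6 and 58.3 in Hox13dKO against 68.0 and 48.1 in wild type. Cox8b read 44.4 and 45.3 in Hox13dKO, below 77.6 and 78.9 in wild type (-0.80 ± 0.55, adjusted p = 0.915). Whether such signals lie above background is not known here. Of the targeted genes, Hoxa13 still read 52.4 and 58.0 units in Hox13dKO and Hoxd11 348 and 454, while Hoxd12 read 5.23 and 33.5. What these remaining signals measure was not tested.

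A muscle gene outside the chain passed the threshold. Actc1, an actin of heart and embryonic muscle, rose (3.76 ± 0.41, adjusted p = 0.0182), and the 10 muscle markers had summed signals of 1866 and 4116 units in Hox13dKO against 627 and 653 in wild type. Actc1 alone read 880 and 2252 in Hox13dKO against 116 and 92.7 in wild type. Of the 9 muscle markers tested 8 were positive (45.8% of all genes were) and 1, Pax3, was negative (-1.16 ± 0.88). Myog and Des were bright enough to test only through their Hox13dKO arrays, and Pax3 only through its wild-type arrays. The signs of these genes therefore add no support to the count. The part of muscle cells in the values of the muscle forms was not tested. In whole tissue a change in the number of cells of a type and a change in RNA per cell cannot be told apart. Cox8c, a testis form, read 125 and 282 in Hox13dKO against 128 and 359 in wild type. Cox4i2 and Ndufa4l2 are forms known to be induced in hypoxia. Cox4i2 read 82.9 and 150 in Hox13dKO against 56.9 and 141 in wild type (0.31 ± 0.57), and with an array left out it differed by -0.34 to 0.97. Ndufa4l2 read 18.1 and 330 in Hox13dKO against 5.91 and 106 in wild type. Its log2 difference of 0.9996 (SE 1.39) was the highest of all members tested (95% interval -2.21 to 4.21, adjusted p = 0.968). The 5.91 lay under 14.1 units and was raised to that value, and without this step the log2 difference was 1.63. Ndufa4l2 was bright enough to test only through its Hox13dKO arrays, so its sign carries no weight. With an array left out its log2 difference ran from -1.09 to 3.09.

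Other mitochondrial lists also had medians near 0. At an unadjusted p under 0.05 they held 1 lower gene of biogenesis, Polg, and 1 of the ribosome, Mrps18b, and 0 in the assembly, citric acid cycle and import lists. Over all genes 4.26% were higher and 2.99% lower by that measure, and 0.306% passed the adjusted threshold. Of 44 assembly factors tested 0 passed, and the median was -0.0030, with Lrpprc, which stabilises mitochondrial mRNAs, at 0.28 ± 0.14 and Cox18, which inserts a complex IV subunit, at -0.37 ± 0.19. Of 17 citric acid cycle genes 0 passed (median 0.02), with Idh3b at 0.15 ± 0.13 and Pdha1 of the pyruvate dehydrogenase complex at -0.12 ± 0.13. Of 21 regulators of mitochondrial biogenesis and genome upkeep 0 passed (median -0.07), with the DNA polymerase gene Polg at -0.43 ± 0.17 and Tfb1m at 0.33 ± 0.19. Of 21 import genes 0 passed (median -0.04), with Timm9 at -0.46 ± 0.21 and Timm22 at -0.21 ± 0.15. Of 76 mitochondrial ribosome genes 0 passed (median -0.05), with Mrps18b at -0.43 ± 0.18 and Mrpl58 at -0.28 ± 0.13. Both Hox13dKO arrays were below both wild-type arrays in 20 of these 76 (26.3%, against 20.1% of all genes) and above in 6 (7.89%, against 17.1% of all genes). The one probe set of a mitochondrially encoded subunit, ND5, read 6138 and 7004 units in Hox13dKO against 6996 and 7097 in wild type (-0.10 ± 0.13). Subunits and partners outside the symbol rule, 4 genes with Cyc1 and Ndufab1 (0.10 ± 0.13) at the lowest p, had a median of -0.05.

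Glycolytic and hypoxia-response genes, measured on the same arrays, had medians further above 0. Of 14 glycolytic genes 14 had positive differences (45.8% of all genes did), 13 had both Hox13dKO arrays above both wild-type arrays (17.1% of all genes did), and the median was 0.72. Of the 14, 0 passed the threshold (0.306% of all genes did) and 11 were higher at an unadjusted p under 0.05 (4.26% of all genes were). Aldoa, the aldolase of this pathway, read 13936 and 16014 units in Hox13dKO against 8183 and 8634 in wild type (0.83 ± 0.13, adjusted p = 0.0763). Tpi1, triosephosphate isomerase, differed by 0.74 ± 0.13 (adjusted p = 0.101). Of 15 hypoxia-response genes 15 had positive differences and the median was 0.87. Car9 among them was bright enough to test only through its Hox13dKO arrays. Bnip3, a mitochondrial protein induced in hypoxia, passed, at 3851 and 6493 in Hox13dKO against 1672 and 1442 in wild type (1.69 ± 0.23, adjusted p = 0.0461), and P4ha1, a collagen prolyl hydroxylase, did not (1.16 ± 0.18, adjusted p = 0.0719). These lists were drawn up with earlier results of these data known, and the gap between them and the respiratory chain has no test of its own. Markers of other cells, in summed signal, were 94221 and 107770 in Hox13dKO against 76299 and 99323 in wild type for 6 erythroid genes, whose lead genes Alas2 and Slc4a1 differed by 1.13 ± 0.32 and 0.87 ± 0.26. They were 2621 and 3372 in Hox13dKO against 2304 and 2355 in wild type for 6 endothelial genes, led by Cdh5 (0.77) and Kdr (0.75). For 6 macrophage genes, led by Mrc1 (1.30) and Aif1 (0.38), they were 1344 and 1291 in Hox13dKO against 952 and 1085 in wild type. Of the 5 macrophage genes tested 3 were positive and 2 negative, and Mrc1 alone read 520 and 461 in Hox13dKO against 208 and 190 in wild type. For 8 ectoderm genes, led by Fgf8 (0.83) and Krt5 (0.53), they were 7547 and 10025 in Hox13dKO against 7432 and 6530 in wild type. Among mesenchyme markers Prrx1 (0.48) and Msx1 (-0.35) had the lowest p, and Prrx1 was the one of 8 above 0. Muscle was led by Actc1 and Myog, which read 222 and 424 in Hox13dKO against 49.3 and 10.7 in wild type. The part of these cells in the respiratory chain values was not tested.

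**Figure D5:**
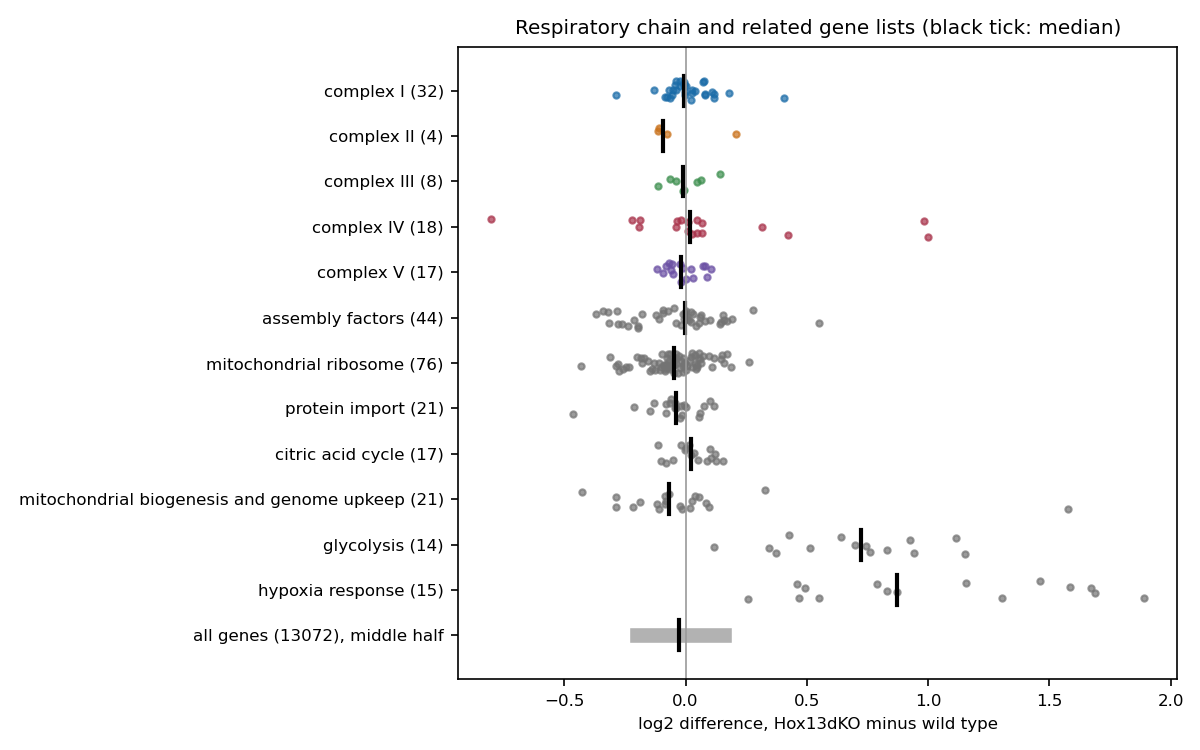
Log2 difference, Hox13dKO minus wild type, of each gene tested (points, brightest probe set) in complexes I to V and 7 related lists, with the number of genes in brackets, the list median as a black tick and the interquartile range of all 13072 genes as a grey bar. Medians of the 5 complexes lie between -0.09 and 0.02, those of glycolysis and the hypoxia response at 0.72 and 0.87.

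Several members have more than 1 probe set, which gives a second reading of the same arrays. Over the 72 further probe sets bright enough to test, 0 passed the threshold and 0 had an unadjusted p under 0.05, with log2 differences from -0.83 to 0.57. Of these, 43 had the sign of the gene's brightest probe set and 29 the opposite sign. Of 46 genes with several tested probe sets, 21 had the same sign in every one. Ndufs8, a core iron-sulfur subunit with 6 probe sets, differed by -0.08 at the brightest and by -0.22, -0.83, -0.20, 0.13 and -0.01 at the others, the -0.83 coming from a dim probe set at 112 and 68.3 units in Hox13dKO against 86.4 and 277 in wild type.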

How the data were processed

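RNA of 2 Hox13dKO and 2 wild-type autopods was measured on 1 array each. The authors deposited 1 intensity per probe set on a linear scale, made with MAS5 per the submitters' processing notes (version not given in the sources used here) and scaled to a 2% trimmed mean of 500.003 on each array. Of 45101 probe sets, 34958 have 1 gene symbol, 932 several and 9211 none. All 81 members were found by gene ID in RefSeq GRCm38.p6. Signals under the 20th percentile of all values (14.1 units) were raised to it, log2 was taken, and the 27022 probe sets at or above the 40th percentile of mean log2 signal (39.6 units) were tested, with 64 control probe sets left out. The test was limma 3.58.1 in R 4.3.3 (eBayes with an intensity trend, two-sided, Benjamini-Hochberg over all probe sets, threshold 0.05), with 2 residual and 6.05 prior degrees of freedom. The spread rests on 2 arrays a group, which limits the precision. Detection calls were not used here. Steps were tested on simulated data.

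Members, lists, alternatives and the rule for names were chosen with earlier results of these data known. Named are members past the threshold, the 2 highest and 2 lowest of each complex, all of complex II, isoform families, core complex I and F1 subunits, and from each related list the 2 with the lowest p; others named were chosen after their values were seen. The NRF1 letters searched are the inner part of a longer palindrome, shortened after the counts of the longer form had been seen. Figures were drawn with matplotlib 3.10.9.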

Additional observations from a re-analysis of the deposited data

How the results depend on the processing

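The number of members past the threshold was 0 in the reported setting and in 12 of 16 alternatives. It was 1, Cox6b2, with 1 probe set per gene in the fit (adjusted p = 0.0314) and with the replicate number as a block (adjusted p = 0.00734), and 0 to 1 with an array left out. The count over all probe sets, 56, was 214 after median centring, 0 with no filter (8.01% of genes at an unadjusted p under 0.05), 1 without the intensity trend, 418 with the replicate block, and 11 to 525 with an array left out. Counted by gene it was 40 as reported, 95 with 1 probe set per gene in the fit and 17 with the mean over probe sets, fits that test fewer features. The cause of these shifts was not tested. Arrays of the same replicate number deviated together (r = 0.198 over all probe sets tested, 0.646 over the members), but the labels do not say that a number marks a shared litter or day, so the block is given here alone. With an array left out the member median ran from -0.074 to 0.092, and the medians ran from -0.030 to 0.057 for complex I, from -0.14 to -0.0086 for complex II and from -0.10 to 0.18 for complex IV. Under the other alternatives the member median ran from -0.02 to 0.03. Counting Ndufa4 and Ndufa4l2 in complex I gave it a median of -0.0022, and complex IV without its tissue forms had 0.02, both chosen after seeing the data. Of 673 values of 43 named members under the alternatives, 669 stayed short of the threshold as reported, 4 (Cox6b2) passed, and 66 changed sign. No alternative reversed a value past the threshold.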
